A study of Mus musculus with 24 samples.

Results

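The transcripts of 35 cell cycle and DNA replication genes were examined in cultured mouse macrophages, 15 that act in DNA replication and the entry into S phase and 20 that act in mitosis. They were taken by symbol from a deposited table of 43629 genes, and all 35 had enough reads to be tested. The cells were bone marrow-derived macrophages (BMDMs), grown from bone marrow precursors of C57BL/6 mice at postnatal week 10. Cells of 2 genotypes were used, wild type (WT) and cells without CITED2 (KO), a protein that acts on transcription through the coactivators CBP and p300. Within each genotype 1 group had no treatment (control), and the others received lipopolysaccharide (LPS), a component of bacterial outer membranes, the cytokine interferon gamma (IFNg) or the cytokine interleukin 4 (IL4). Each of the 8 groups held 3 libraries. How the gene was deleted, and the doses and times of treatment, are not given in the sources used here.

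A dividing cell copies its DNA in S phase and separates the copies in mitosis. Cyclin E with its kinase releases E2F transcription factors, CDC6 loads the MCM2 to MCM7 helicase on replication origins, PCNA clamps the polymerases to DNA, and thymidylate synthase, ribonucleotide reductase and thymidine kinase supply nucleotides. The genes of mitosis are switched on later, in G2, by FOXM1 and MYB proteins acting with the MuvB complex at promoters that often carry a CHR element beside CCAAT boxes. Macrophages grown from bone marrow divide in response to the growth factor CSF1, and LPS and interferon gamma are known to halt that division.

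The values were normalised read counts, the reads assigned to a gene divided by 1 factor per library. Reads per library had a median of 29551522 and ranged from 1478507 to 73409343. The shallowest library, KO LPS replicate 1, stood apart: a single read was worth 23.6 there, 12 of the 20 mitosis genes and 6 of the 15 replication genes had fewer than 3 reads, and the next shallowest library held 7818719 reads. Cited2 itself lay between 1117 and 4174 in the 12 WT libraries and between 8.52 and 94.5 in the 12 KO libraries. Differences are given as log2 of the value plus 1, with the standard error from limma fitted to 18637 genes in 24 libraries. Adding 1 shrinks the ratios of low values, but a library without a read lowers its group's mean and can enlarge a fall. A gene was called, and is said to have risen or fallen, when its adjusted p (Benjamini-Hochberg) was below 0.05. Where called genes are said not to overlap between groups, the same libraries gave both results, so this is no separate support. The share of all genes without such overlap was not counted. Whether replicates were separate animals or cultures is not in the labels, so the p-values speak of the spread among these libraries, which may be technical. In bulk RNA, fewer dividing cells and less RNA per cell cannot be told apart. Macrophage markers (10 genes, Csf1r, Adgre1 and Cd68 among them) summed to between 137000 and 227000 in every library. Whether strand was used in counting is not stated, so reads of Ccna2, Ccne2, Cdc20, Kif20a, Mcm7, Nusap1 and Tk1 cannot be told apart from those of genes that overlap their exons on the other strand. Pcna, Tyms, Ccnb1 and Ccnb2 have pseudogene copies that could share reads, and Foxm1 shares exon sequence with Tex52 on the same strand.

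The promoters of 28 of the 35 genes were in the RefSeq table used here (build GRCm38.p6), and they differed in sequence between the groups of genes. Windows from 250 bases before to 50 bases after the start were searched on both strands for E2F motifs (TTTGGCGC, TTTCCCGC, TTTCGCGC or TTTGCCGC), for CHR elements (TTTGAA or TTCGAA) and for CCAAT. An E2F motif was in 5 of 14 replication promoters, or 35.7% (Mcm7 has 2 starts), in 1 of 15 mitosis promoters, or 6.67%, and in 2.26% of 32851 promoters. A CHR element was in 11 of 15 mitosis promoters, or 73.3%, in 2 of 14 replication promoters, or 14.3%, and in 19.2% of all promoters. Searching only the 250 bases before the start, a CHR element was in 7 of 15 mitosis promoters, or 46.7%, against 17.1% of all promoters. CCAAT was found in 86.7% of mitosis promoters, 64.3% of replication promoters and 37.4% of all promoters. The 4 sequences printed here span 150 bases before the start, all on the minus strand, with the matches in capitals. Mki67 and Top2a are shown because they hold the same kinds of element and yet moved in opposite directions with LPS and IFNg. Cdk1 is shown as the mitosis promoter that also held an E2F motif, and Mcm6 as a replication promoter with 3 E2F motifs, a pair of which overlap on opposite strands.
Mki67, chr7:135716380-135716529: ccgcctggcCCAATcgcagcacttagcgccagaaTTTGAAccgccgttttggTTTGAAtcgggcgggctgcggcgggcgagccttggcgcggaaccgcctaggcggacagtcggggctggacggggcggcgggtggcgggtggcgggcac
Top2a, chr11:99024190-99024339: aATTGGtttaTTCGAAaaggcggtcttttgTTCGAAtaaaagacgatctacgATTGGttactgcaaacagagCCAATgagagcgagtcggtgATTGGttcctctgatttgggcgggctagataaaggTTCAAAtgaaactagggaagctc
Cdk1, chr10:69352913-69353062: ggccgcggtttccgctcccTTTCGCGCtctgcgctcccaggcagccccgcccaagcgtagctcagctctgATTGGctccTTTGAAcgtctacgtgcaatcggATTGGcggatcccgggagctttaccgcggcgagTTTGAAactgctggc
Mcm6, chr1:128359706-128359855: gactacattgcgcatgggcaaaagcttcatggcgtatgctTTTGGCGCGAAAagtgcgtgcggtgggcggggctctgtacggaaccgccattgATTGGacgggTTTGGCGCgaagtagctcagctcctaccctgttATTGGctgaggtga
The genes themselves lie, in the GENCODE M21 annotation of GRCm38, at chr7:135689784-135716361 (Mki67), chr11:98992943-99024189 (Top2a) and chr1:128331590-128359664 (Mcm6), all on the minus strand. The promoter of Ccne1 (gene at chr7:38097984-38107534), the replication gene with the largest rise in LPS, held none of the 3 motifs in the window, and that of Pcna held only CCAAT. A match describes letters in a window and is not a binding site.

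In WT macrophages given LPS, the replication genes divided into 8 that fell and 4 that rose. Among all genes tested 25.5% were called higher and 27.8% lower, and the median log2 difference was -0.87 over the replication genes against -0.06 over all genes. The helicase genes fell except for Mcm6. Mcm2 lay at 199, 195 and 222 in WT control and at 48.9, 41.1 and 30.9 with LPS, with no overlap, a log2 difference of -2.34 ± 0.17 (SE, n = 3, adjusted p = 2.2e-11). Mcm7 fell by 2.03, Mcm3 by 0.99, Mcm5 by 0.59 and Mcm4 by 0.57. Mcm6, whose product is part of the same helicase, lay at 1500, 1509 and 1363 in control and at 1573, 1819 and 1859 with LPS. Its rise of 0.26 ± 0.08 (n = 3, adjusted p = 0.0086) was 0.21 without WT control replicate 3, where it did not pass, and turned to a fall of -0.50 with values scaled to library totals. E2f1, the transcription factor gene, fell from 641, 577 and 620 to 196, 193 and 200, by 1.64. The ribonucleotide reductase genes fell with it, Rrm2 by 1.69 and Rrm1 by 1.00.

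The replication gene with the largest rise in LPS was Ccne1, which encodes cyclin E1. It lay at 41.0, 40.6 and 39.1 in WT control and at 253, 327 and 269 with LPS, a log2 difference of 2.77 ± 0.19 (n = 3, adjusted p = 4.4e-12). The levels of its paralog Ccne2 overlapped between the groups, at 24.8, 20 and 24.4 in control and 12.2, 16.5 and 27.4 with LPS. Pcna rose from 3094, 2925 and 2867 to 4484, 4647 and 5052, by 0.67 ± 0.05, and Tyms, the thymidylate synthase gene, by 0.83 ± 0.22. Scaled to library totals, Pcna stood at -0.09 and Tyms at 0.07, and neither was called. Tk1 (thymidine kinase), Cdc6 and Ccne2 did not pass the test. Such rescaling matters for every LPS and IFNg comparison: centring each library on its median raised the median of all genes in LPS by 0.42 in WT, and scaling to library totals (reads in the library, in place of the authors' factors) lowered it by 0.58. The replication genes then divided into 4 higher and 6 lower when centred, and 1 higher and 11 lower with library-total scaling. For IFNg in WT those shifts were 0.32 and -0.35.

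The mitosis genes also moved in opposite directions with LPS in WT cells, 3 higher and 7 lower of 20, with a median of -0.67. Among all genes 25.5% were higher and 27.8% lower. The split of the mitosis genes was 4 and 5 with centring and 2 and 14 with library-total scaling. Mki67, the gene of the proliferation antigen Ki-67, lay at 151, 152 and 161 in WT control and at 2360, 2239 and 2261 with LPS, so that every LPS library was far above every control library. The difference was 3.88 ± 0.09 (n = 3, adjusted p = 1.5e-21), 14.7-fold, the largest rise among the 35 genes. Tpx2, which encodes a spindle assembly factor that activates Aurora A, rose from 148, 157 and 142 to 1231, 1193 and 1295, 8.28-fold. Cenpe, a kinetochore motor gene, was 0.62 higher, and -0.14 with library-total scaling. Mki67, Tpx2 and Ccne1 kept their rise and their call under both rescalings.

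Other mitosis genes fell in the same libraries. Cenpa, which encodes the centromeric histone H3 variant, lay at 378, 403 and 408 in control and at 77.5, 50.6 and 75.0 with LPS, a difference of -2.56 ± 0.16 (n = 3, adjusted p = 1.2e-12). Top2a, the topoisomerase gene often read beside Mki67 as a mark of dividing cells, fell from 280, 291 and 288 to 130, 127 and 148, by 1.08. Aurkb (Aurora B kinase) fell by 1.98, Bub1 (a spindle checkpoint kinase) by 1.70, Cdk1 (the kinase that starts mitosis) by 1.20 and Kif11 (a spindle motor) by 0.89. Kif20a, a motor of cell division, was 0.70 lower, but did not pass without WT control replicate 1 (-0.59) or WT LPS replicate 3 (-0.58). With centring, Kif11, Kif20a, Mcm4 and Mcm5 were not called, at -0.47, -0.28, -0.15 and -0.17. The other 10 mitosis genes did not pass, among them Plk1 (Polo kinase), Ccnb1 and Ccnb2 (cyclins B), whose values were at or below 25.3 in these 6 libraries, and Ccna2 (cyclin A2), at 52.3, 46.4 and 31.8 in control against 36.7, 46.2 and 45.2 with LPS.

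**Figure D1:**
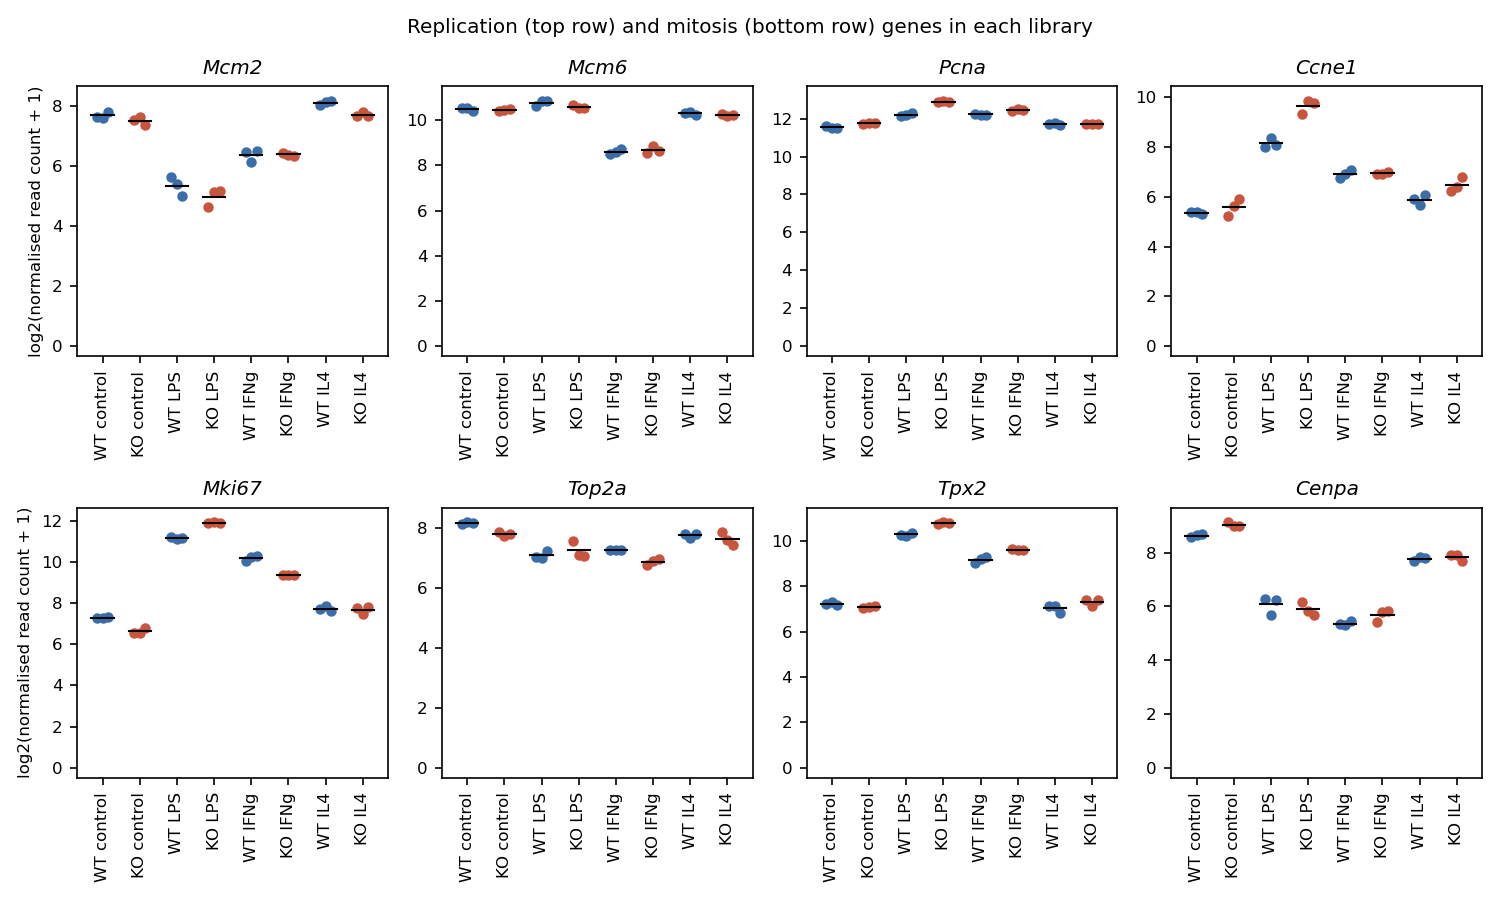
Normalised read counts of 8 genes in each of the 24 libraries, as log2 of the value plus 1 on the vertical axis, with replication genes in the top panels and mitosis genes in the bottom panels; each point is a library, blue for WT and red for KO, and each short line is the mean of a group of 3. Mcm2 was low in LPS and IFNg, Mcm6 was lower in IFNg than in control, Mki67 and Tpx2 were far higher in LPS and IFNg than in control, and Top2a and Cenpa were lower.

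The summed progenitor markers were lower with LPS as well, though most were not called. The summed values of Kit, Cd34, Flt3, Myb and 4 other markers of blood progenitors were 724 to 796 in WT control and 200 to 281 in WT LPS. Of the 7 tested 3 were lower and none higher, with a median log2 difference of -0.21 (range -5.18 to 1.45). Flt3 was without a read in most groups and the adult globin genes in all of them. The 10 erythroid markers, those globin genes included, summed to 17.1 to 32.2 in WT control, 257 to 283 in WT LPS and 154 to 165 in WT IFNg. Of the 3 tested, 1 rose and 1 fell with LPS, and likewise with IFNg. Fibroblast markers summed to 310 to 387 in WT control and 635 to 722 in WT LPS, with 4 of 7 higher and none lower. Granulocyte precursor markers summed to 1290 to 1530 in WT control and 2190 to 2580 in WT LPS, though of the 10 tested 3 rose and 2 fell, with a median of -0.04. The part of any such cells in the differences was not tested.

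KO macrophages given LPS also divided into genes that rose and genes that fell. Of the replication genes 3 rose and 8 fell (median -0.30), and of the mitosis genes 5 rose and 7 fell (median -0.40), where 24.5% of all genes rose and 32.5% fell (median -0.21). These splits were 4 and 6, and 8 and 4, with centring, and 2 and 10, and 3 and 12, with library-total scaling. Of the replication genes 3 rose and 7 fell in both genotypes, of the mitosis genes 3 rose and 5 fell in both, and none rose in one and fell in the other. The share of all genes called alike in both genotypes was not counted, so this overlap cannot be read as particular to these genes. Mki67 went from 92.5, 92.0 and 110 in KO control to 3804, 3876 and 3744 in KO LPS, 38.5-fold (log2 difference 5.27 ± 0.09, n = 3, adjusted p = 3.1e-24). Ccne1 went from 36.1, 49.1 and 59.6 to 638, 923 and 875, 16.6-fold, and Tpx2 from 132, 133 and 140 to 1677, 1797 and 1767, 12.9-fold. Pcna rose from 3309, 3517 and 3495 to 7395, 7861 and 7574, 2.21-fold. Each of these groups stood clear of its control, and the shallow library was the lowest of its group for Ccne1, Tpx2 and Pcna.

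At lower levels the shallow library decided several values in KO LPS. Ccne2 lay at 0, 41.2 and 37.5 against 6.74, 16.7 and 12.3 in KO control, and its difference of -0.05 was 1.72 without KO LPS replicate 1. Foxm1, which drives mitosis genes, was higher by 0.84 but did not pass without that library (0.49) or without KO control replicate 3 (0.69). Mcm5 was 0.30 lower, yet did not pass without KO control replicate 1 or 2 or any of the 3 KO LPS libraries (-0.27 to -0.32), and Bub1 was 1.46 lower but -1.07, and no longer called, without KO LPS replicate 3. Nusap1, a spindle microtubule gene, rose by 1.91 from 11.6, 6.27 and 14.0 to 23.6, 57.2 and 50.1. Birc5 (survivin), Cdc20 (an activator of the anaphase-promoting complex) and Cdc6 fell by 2.48, 2.27 and 2.29, each with no read in the shallow library, where 3 reads would be 70.9. None of those 3 falls was called when only the KO control and KO LPS libraries entered the fit. Progenitor markers summed to 778 to 804 in KO control and 142 to 202 in KO LPS. Of the 7 tested 3 were lower and none higher (median -0.70). Granulocyte precursor markers summed to 1150 to 1270 in KO control and 2450 to 2580 in KO LPS (4 of 10 higher, 0 lower, median 0.52). Fibroblast markers summed to 255 to 317 and 496 to 671 (5 of 7 higher, 1 lower, median 0.84). The part of these cells was not tested.

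With IFNg most replication genes fell in WT cells: 2 rose and 9 fell of 15, with a median of -0.75. Among all genes 22.5% rose and 22.6% fell, with a median of 0.00. Mcm6 was among the genes that fell: it lay at 1500, 1509 and 1363 in control and at 357, 391 and 417 with IFNg, a difference of -1.91 ± 0.08 (n = 3, adjusted p = 4.9e-16). Mcm7 fell by 1.55, Mcm2 by 1.31, Mcm5 by 0.77 and Mcm4 by 0.69. Mcm3 lay at 579, 552 and 589 against 587, 600 and 596 in control, a difference of -0.05 that did not pass and that became 0.27 with centring. E2f1 fell by 1.41, Rrm2 by 1.34 and Rrm1 by 0.75. Tyms was 0.66 lower, but was not called without WT control replicate 1 (-0.60) or with centring (-0.34). The 2 that rose were Ccne1, at 108, 120 and 133 (1.55 ± 0.19), and Pcna, at 4834, 4730 and 4703 (0.68 ± 0.05).

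Of the mitosis genes, 2 rose and 9 fell with IFNg in WT cells, beside 22.5% and 22.6% of all genes. The mitosis genes had a median of -0.90. Mki67 lay at 1056, 1203 and 1234, 7.48-fold above control (2.90 ± 0.09, n = 3, adjusted p = 8.5e-19), and Tpx2 at 523, 589 and 617, 3.84-fold above. Cenpa fell to 39.4, 38.2 and 43.0, 9.65-fold below control, and Bub1b, the spindle checkpoint gene of BubR1, fell from 127, 127 and 95.3 to 26.9, 17.7 and 30.9, 4.56-fold. Aurkb fell by 2.08, Kif11 by 1.99, Bub1 by 1.73, Cdk1 by 1.49, Kif20a by 0.95, Cenpe by 0.91 and Top2a by 0.90. Every one of these 9 genes lay lower in each IFNg library than in any control library, as did Cdc20 and Birc5, which were not called. Progenitor markers summed to 207 to 219 in WT IFNg, with 2 of 7 lower and none higher. Their median log2 difference was -0.06, and their part was not tested.

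In KO cells IFNg gave the same directions. Of the replication genes 2 rose and 10 fell (median -0.60), and of the mitosis genes 4 rose and 9 fell (median -0.91), where 22.3% of all genes rose and 23.7% fell (median -0.08). The replication split was 3 and 6 with centring, and the mitosis split 2 and 11 with library-total scaling. The 2 replication genes that rose and the 9 that fell in WT did so in KO as well, and so did the 2 and 9 mitosis genes. Here too the share of all genes called alike in both genotypes was not counted. Mki67 went from 92.5, 92.0 and 110 to 649, 648 and 653, 6.58-fold, and Tpx2 from 132, 133 and 140 to 793, 780 and 763, 5.74-fold. Foxm1 rose by 1.00 in KO, to 67.8, 62.0 and 64.2 from 34.3, 36.6 and 25.4, and was 0.57 higher and not called with library-total scaling. Cdc6, at 1.69, 12.8 and 6.69 against 15.9, 24 and 29.8 in KO control, was 1.84 lower, but 1.19 lower and not called without KO IFNg replicate 1. That call also ended without KO control replicate 2 or 3. Nusap1 (1.09), Tyms (-0.60), Bub1 (-1.32) and Rrm2 (-1.10) were called too, and each lost the call without at least 1 single library. Progenitor markers summed to 778 to 804 in KO control and 153 to 185 in KO IFNg, with 2 of 7 lower and none higher. Their median log2 difference was -0.45, and their part was not tested.

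LPS and IFNg were also compared with each other, by their group means within the fit to all 24 libraries. That comparison was added after the data had been seen. In WT 6 of the 20 mitosis genes were called higher with LPS than with IFNg and none lower, and 14 did not pass. Over all genes 19.2% were higher and 19% lower (median -0.04). The median of the mitosis genes was 0.27, and -0.04 with library-total scaling. Bub1b was 1.70 higher, Cenpe 1.53, Tpx2 1.11, Kif11 1.10, Mki67 0.98 and Cenpa 0.71, Cenpa being 0.40 and not called with library-total scaling. Where limma called 0 mitosis genes lower, 1 had an unadjusted p below 0.05, and edgeR and DESeq2 called 2 each. The replication genes divided into 3 higher (Mcm6 by 2.17, Tyms by 1.49 and Ccne1 by 1.22) and 4 lower (Tk1, Mcm2, Mcm3 and Rrm1), a median of -0.05. Tk1 (-1.76) lost its call without WT LPS replicate 1 or WT IFNg replicate 2, and Rrm1 (-0.25) without WT LPS replicate 2 or WT IFNg replicate 2. With centring the replication split was 4 and 3, and with library-total scaling it was 3 and 7, with the mitosis split at 5 and 3. In KO cells 5 replication genes were higher and 2 lower with LPS, at a median of 0.03, and 6 mitosis genes higher and none lower, at 0.31, against 19.8% and 23.1% of all genes (median -0.08). Scaled to library totals these were 3 and 5, and 5 and 2. In KO too limma called 0 mitosis genes lower, with 0 at an unadjusted p below 0.05 and 1 each in edgeR and DESeq2. Bub1b was 2.99 higher there, Mki67 2.55, Kif11 1.73, Cenpe 1.53 and Tpx2 1.16, while Top2a (0.37) was not called without KO LPS replicate 1 or KO IFNg replicate 1 and was -0.05 with library-total scaling.

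With IL4 fewer genes were called than with LPS or IFNg, among the 35 and among all genes alike. In WT cells 3 replication genes rose and none fell, with a median of 0.00, where 10.6% of all genes rose and 9.56% fell (median 0.00). Mcm5 went from 202, 210 and 232 to 280, 315 and 289, a difference of 0.46 ± 0.12 (n = 3, adjusted p = 0.0079), Mcm3 from 587, 600 and 596 to 692, 716 and 722 (0.26 ± 0.07), and Pcna from 3094, 2925 and 2867 to 3376, 3454 and 3263 (0.18 ± 0.05). All 3 stood above every control library. Beside the 0 replication genes that limma called lower, 1 was lower at an unadjusted p below 0.05, and edgeR and DESeq2 called 1 each. Both of those tools called 5 replication genes higher. Among the mitosis genes Mki67 rose to 208, 231 and 194 (0.44 ± 0.09, adjusted p = 6.4e-04), and Cenpa fell to 206, 227 and 222 (-0.86 ± 0.16). Top2a was 0.41 lower but lost the call without any 1 of the 6 libraries. With 1 risen and 2 fallen of 20, the median of the mitosis genes was -0.25. Progenitor markers summed to 286 to 307 in WT IL4 against 724 to 796 in WT control (1 of 7 lower, median -0.08). Granulocyte precursor markers summed to 501 to 635 against 1290 to 1530 (5 of 10 lower, median -1.12). None of either list rose, and their part was not tested.

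In KO cells IL4 raised Mki67 from 92.5, 92.0 and 110 to 216, 176 and 220, by 1.04 ± 0.09 (n = 3, adjusted p = 1.7e-09), and lowered Cenpa from 560, 509 and 510 to 241, 241 and 206, by 1.20 ± 0.16. Ccne1 rose from 36.1, 49.1 and 59.6 to 73.3, 83.3 and 110, by 0.87 ± 0.19, a rise not called when only the 6 libraries compared entered the fit. Mcm4 was 0.24 higher, and 0.18 and not called without KO IL4 replicate 1. That made 2 replication genes higher and none lower (median 0.17) and 1 mitosis gene in each direction (median 0.07), beside 12.6% and 10.5% of all genes. Where limma called 0 replication genes lower, 1 had an unadjusted p below 0.05, edgeR called 0 and DESeq2 called 1. Mki67 and Cenpa were the only members called in both genotypes, and the share of all genes called in both was not counted. In KO IL4 progenitor markers summed to 249 to 306 against 778 to 804 in KO control (2 of 7 lower, median -0.62). Granulocyte precursor markers summed to 271 to 324 against 1150 to 1270 (4 of 10 lower, median -1.10). None of either rose, and their part was not tested.

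**Figure D2:**
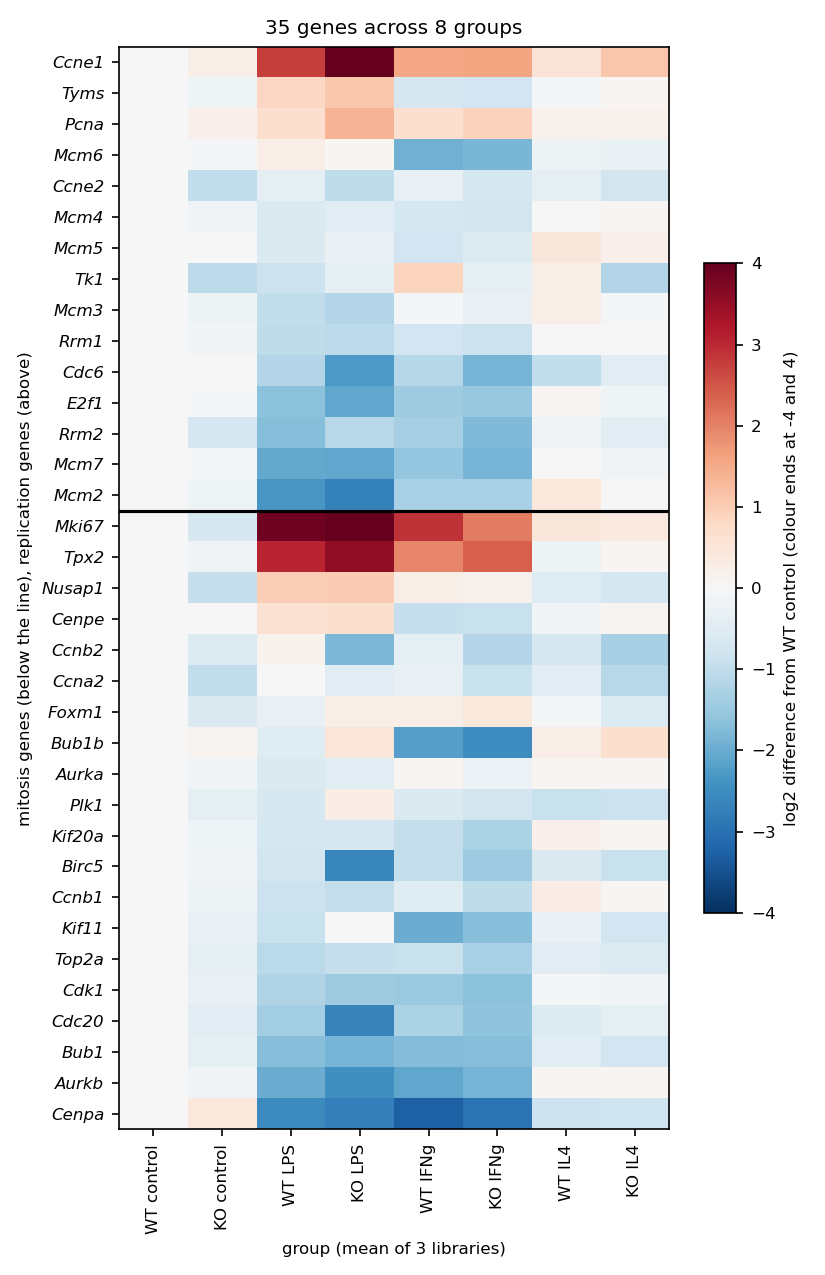
Difference of each group's mean from the mean of WT control, as log2 of the value plus 1, for the 35 genes (vertical axis; replication genes above the line, mitosis genes below it) in the 8 groups (horizontal axis), with red higher and blue lower and the colour scale ending at -4 and 4. The LPS and IFNg columns hold both strong reds (Mki67, Tpx2, Ccne1) and strong blues (Cenpa, Mcm2, Mcm7), and the IL4 columns are pale.

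Without treatment the genotypes differed in 2 of the 35 genes. Mki67 was lower in KO, at 92.5, 92.0 and 110 against 151, 152 and 161 in WT, a difference of -0.65 ± 0.09 (n = 3, adjusted p = 1.8e-05). Pcna was higher, at 3309, 3517 and 3495 against 3094, 2925 and 2867 (0.22 ± 0.05, adjusted p = 0.0044). In both, the genotypes did not overlap. Over all genes 4.11% were higher in KO and 3.05% lower, at a median of 0.00, while the median was -0.10 over the replication genes and -0.30 over the mitosis genes. Counts of calls here rested on the tool: edgeR on recovered reads called 1 replication gene higher and 3 lower (Rrm2 at -0.68, Tk1 at -1.49 and Ccne2 at -1.01), and 1 mitosis gene higher (Cenpa at 0.43) and 4 lower (Mki67, Top2a at -0.35, Ccna2 at -1.10 and Nusap1 at -1.19). DESeq2 called 1 higher and 0 lower of the replication genes and 1 higher and 4 lower of the mitosis genes. At an unadjusted p below 0.05 limma itself had 2 replication genes lower and 1 mitosis gene higher, where it called 0 and 0. Scaled to library totals the lower counts were 2 and 2. Of these, Top2a lay at 280, 291 and 288 in WT and 230, 210 and 224 in KO, and Cenpa at 378, 403 and 408 in WT and 560, 509 and 510 in KO, also without overlap. Granulocyte precursor markers counted 0 higher and 4 lower in KO control of 10 tested (median -1.29). Macrophage markers counted 0 and 4 of 10 (median -0.17), and progenitor markers 0 and 0 of 7 (median -0.02). Their part was not tested.

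With LPS the difference in Mki67 lay on the other side. Mki67 was at 3804, 3876 and 3744 in KO and at 2360, 2239 and 2261 in WT, 1.67-fold higher (0.74 ± 0.09, n = 3, adjusted p = 1.5e-06). Ccne1 was 2.85-fold higher, at 638, 923 and 875 against 253, 327 and 269 (1.51 ± 0.19, adjusted p = 2.2e-06), Pcna 1.61-fold and Tpx2 1.41-fold. In all 4 genes each KO library lay above every WT library. Bub1b was 0.96 ± 0.23 higher, at 213, 152 and 129 against 65.2, 89.9 and 94.0, and Kif11 was 0.90 ± 0.24 higher, at 94.5, 73.2 and 77.6 against 53.0, 36.1 and 41.7. Over 17 alternatives the adjusted p lay between 0.0014 and 0.13 for Bub1b and between 7.0e-04 and 0.13 for Kif11. Both were highest, and past the threshold, when only the 6 libraries compared entered the fit. Birc5 and Ccnb2 were called lower (-1.87 and -1.92), but both had no read in KO LPS replicate 1. Without that library they stood at -0.66 and -0.69, and edgeR and DESeq2 called neither. Birc5 lost its call without WT LPS replicate 2 or 3 as well, and Ccnb2 without any of the 3 WT LPS libraries. The replication genes thus counted 2 higher and none lower, with a median of -0.03, and the mitosis genes 4 higher and 2 lower, with a median of 0.01, where 9.7% of all genes were higher and 12.5% lower (median -0.06). With centring the mitosis split was 4 and 1, and with library-total scaling the replication split was 2 and 5. Where limma called 0 replication genes lower, 3 had an unadjusted p below 0.05, edgeR called 0 and DESeq2 called 1. Granulocyte precursor markers counted 1 higher and 2 lower in KO LPS of 10 tested (median -0.49). Macrophage markers counted 1 and 5 of 10 (median -0.20), and progenitor markers 0 and 2 of 7 (median -0.82). Their part was not tested.

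With IFNg the genotypes differed in opposite directions at different genes. Mki67 was lower in KO, at 649, 648 and 653 against 1056, 1203 and 1234 (-0.84 ± 0.09, n = 3, adjusted p = 3.9e-07). Tpx2 was higher, at 793, 780 and 763 against 523, 589 and 617 (0.44 ± 0.09, adjusted p = 0.0026), and Pcna was higher, at 5323, 5769 and 5628 against 4834, 4730 and 4703 (0.23 ± 0.05, adjusted p = 0.0023). None of the 3 overlapped. Mcm3 was called lower (-0.24), a call that was lost without any 1 of the 6 libraries and with centring, which left 1 higher and none lower of the replication genes. In all, 1 of the replication genes was higher and 1 lower, and 1 and 1 of the mitosis genes (1 and 2 with library-total scaling), with medians of -0.10 and -0.24, where 4.83% of all genes were higher and 4.21% lower (median -0.03). Granulocyte precursor markers counted 0 higher and 0 lower in KO IFNg of 10 tested (median -0.64). Macrophage markers counted 2 and 4 of 10 (median -0.04), and progenitor markers 0 and 0 of 7 (median -0.28). Their part was not tested.

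With IL4 only Mcm3 was called, at 553, 595 and 595 in KO against 692, 716 and 722 in WT, a difference of -0.29 ± 0.07 (n = 3, adjusted p = 0.0093). It was -0.25 and not called without KO IL4 replicate 1, and -0.24 and not called with centring. Among all genes 6.14% were higher and 3.14% lower. Mki67 lay at 216, 176 and 220 in KO against 208, 231 and 194 in WT, overlapping. Tk1, at 4.14, 3.90 and 4.26 in KO and 11.0, 13.2 and 15.1 in WT, did not overlap, and its difference of -1.45 did not pass (adjusted p = 0.13). edgeR called it lower at -1.62 and called Mcm2 at -0.38. The edgeR counts were 1 higher and 3 lower of the replication genes and 1 higher and 2 lower of the mitosis genes, while limma and DESeq2 called 0 mitosis genes. At an unadjusted p below 0.05 limma had 1 mitosis gene higher and 1 lower, and 1 replication gene higher, which both other tools called. Granulocyte precursor markers counted 0 higher and 5 lower in KO IL4 of 10 tested (median -1.44). Macrophage markers counted 2 and 1 of 10 (median -0.01), and progenitor markers 0 and 0 of 7 (median -0.10). Their part was not tested.

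The interaction terms, which test whether the response to a treatment differed between genotypes, were called for 5 genes with LPS, all larger in KO. The difference between the KO and the WT response was 1.39 ± 0.13 for Mki67 (adjusted p = 6.5e-08), 1.28 ± 0.27 for Ccne1 (adjusted p = 0.0025), 0.64 ± 0.13 for Tpx2, 0.47 ± 0.07 for Pcna and 1.18 ± 0.34 for Kif11. Kif11 lay just inside the threshold (adjusted p = 0.029) and was lost without any 1 of the 6 control libraries but WT control replicate 3, or without WT LPS replicate 2. That made 2 replication genes larger in KO and none smaller (median 0.28), and 3 and none of the mitosis genes (median 0.27), where 4.29% of all genes were called larger and 4.5% smaller (median -0.08). Of the 0 called smaller, no replication gene and 1 mitosis gene had an unadjusted p below 0.05, and edgeR and DESeq2 called 0 and 1. With IFNg only Tpx2 was called (0.58 ± 0.13, adjusted p = 0.014), and it was 0.51 and not called without WT IFNg replicate 1. That was 1 of 35, where 1.32% and 1.18% of all genes were called. With IL4 only Mki67 was called (0.60 ± 0.13, adjusted p = 0.0051), beside 2.45% and 1.15% of all genes. Its 2 genotypes began apart in control, at 92.5 to 110 and 151 to 161, and overlapped with IL4. That call was lost when only the 12 libraries compared entered the fit. Of the replication genes 0 were called for IFNg by limma, edgeR or DESeq2, with 0 at an unadjusted p below 0.05. For IL4 they were 0 in limma and edgeR, with 1 in each direction at an unadjusted p below 0.05, and DESeq2 called 1 smaller.

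**Figure D3:**
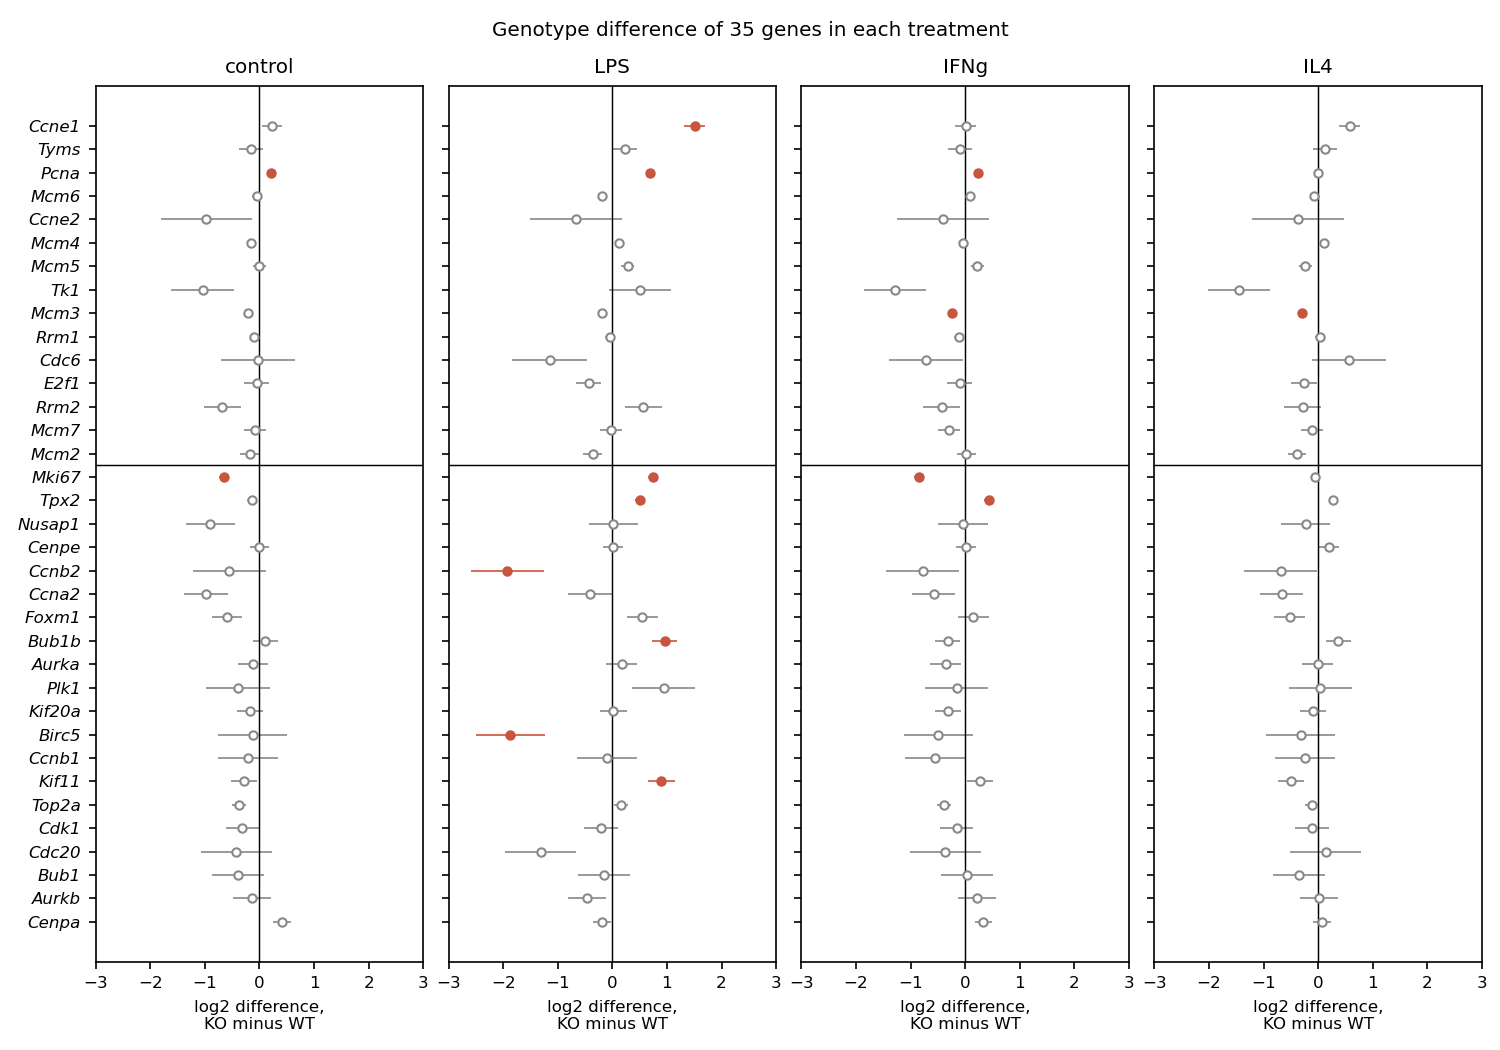
Difference between KO and WT for each of the 35 genes in control, LPS, IFNg and IL4, as log2 of the value plus 1, with bars of 1 standard error from limma; filled red points passed the test and open points did not. Mki67 lay below 0 in control and IFNg, above 0 in LPS, and near 0 in IL4, while Pcna lay above 0 in control, LPS and IFNg.

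Genes of the same processes outside the 35 were also called, more often lower than higher with LPS and IFNg in WT. The lists here were chosen with earlier results of these data known. Of 45 other replication genes (origin recognition, GINS, polymerase and clamp loader subunits among them), 4 rose and 24 fell with LPS in WT (median -0.74) and 6 rose and 24 fell with IFNg (median -0.85). Among all genes 25.5% rose and 27.8% fell with LPS, 22.5% and 22.6% with IFNg, and 10.6% and 9.56% with IL4. Those splits were 7 and 19, and 9 and 17, with centring, and 2 and 38, and 3 and 32, with library-total scaling. Gmnn, whose product geminin blocks the reloading of origins, fell from 459, 388 and 388 to 36.7, 22.2 and 35.7 with LPS, a difference of -3.69, and Brca1 fell by 2.70. Dck, which encodes the deoxycytidine kinase of nucleotide salvage, rose in all 3 treatments, by 2.90 with LPS, 2.15 with IFNg and 1.80 with IL4. Of 50 other mitosis genes 4 rose and 23 fell with LPS (median -1.11), and 1 rose and 18 fell with IFNg (median -1.07). The LPS split was 5 and 14 with centring and 2 and 40 with library-total scaling, and the IFNg split was 1 and 9 with centring and 1 and 36 with library-total scaling. With edgeR 35 were lower in LPS and 36 in IFNg. Cdc25b, the phosphatase gene that activates CDK1, fell from 580, 506 and 542 to 24.5, 20.9 and 20.2 with LPS and to 31.4, 34.2 and 31.6 with IFNg. Kif23, a motor of cytokinesis, fell by 3.76 and 3.27. Pttg1, the securin gene, was among the 4 that rose with LPS, by 2.31. With IL4 the counts were 4 and 3 of the other replication genes, where edgeR called 13 higher, DESeq2 called 8 and limma on only the libraries compared called 12. They were 0 and 1 of the other mitosis genes, Kif23 being that 1 (-1.83), while edgeR called 3 higher and 12 lower of the latter and DESeq2 called 1 and 11. At an unadjusted p below 0.05 limma had 1 of the other mitosis genes higher.

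Genes of G1 regulators and inhibitors, which act on whether a cell leaves G1, included larger changes with LPS than any of the 35. They took in cyclin D, E2F and kinase inhibitor genes, with Cdk2, Myc, Trp53 and others. Of 36 such genes 18 rose and 12 fell with LPS in WT (median 0.20) and 14 rose and 12 fell with IFNg (median 0.04), beside 25.5% and 27.8% of all genes with LPS and 22.5% and 22.6% with IFNg. The splits were 20 and 8, and 15 and 10, with centring, and 12 and 17, and 9 and 17, with library-total scaling. Ccnd2, which encodes cyclin D2, lay at 25.3, 27.1 and 24.4 in WT control, at 12388, 12438 and 12526 with LPS and at 4158, 4171 and 4151 with IFNg. Cdkn1a, which encodes the kinase inhibitor p21, lay at 968, 1083 and 1016 in control, at 59838, 62224 and 61360 with LPS and at 27908, 26675 and 27833 with IFNg. These groups were far apart, with log2 differences of 8.87 ± 0.18 and 5.90 ± 0.05 in LPS. E2f2, another E2F gene, fell from 148, 154 and 166 to 4.08, 11.4 and 7.14 with LPS, by 4.29 ± 0.47. Rbl1, which encodes the pocket protein p107, rose by 3.08 with LPS and 3.17 with IFNg, and Mxd1, a gene for a MYC antagonist, rose by 3.38 with LPS. Cdk2, the kinase gene of cyclin E, fell by 1.97 with LPS, where Ccne1 rose. With IL4 7 rose and 10 fell (median -0.13), beside 10.6% and 9.56% of all genes. Myc rose from 40.4, 27.1 and 36.6 to 216, 218 and 218 with IL4, by 2.63 ± 0.25.

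Between genotypes Cdkn1c, which encodes the kinase inhibitor p57, was higher in KO in every treatment. It lay at 1801, 1956 and 1898 in KO control against 860, 810 and 997 in WT control (1.09 ± 0.09, n = 3, adjusted p = 9.0e-09). In LPS the difference was 1.06, in IFNg 1.08 and in IL4 1.13, and the genotypes did not overlap in any of the 4. Cdkn1a was 0.48 higher in untreated KO and 0.82 higher with IL4, at 3283, 3279 and 3094 against 1792, 1849 and 1819. Ccnd1, which encodes cyclin D1, was lower in KO, at 143, 177 and 139 against 367, 388 and 383 in control (-1.31 ± 0.26) and at 213, 187 and 230 against 551, 532 and 577 with IL4 (-1.40 ± 0.26). Myc was lower in KO with IL4, at 75.1, 67.7 and 72.4 against 216, 218 and 218 (-1.59 ± 0.25). In all, 7 of the 36 were higher and 3 lower in control, 11 and 5 with LPS, 6 and 4 with IFNg, and 8 and 3 with IL4. Of all genes 4.11% were higher and 3.05% lower in control, 9.7% and 12.5% with LPS, 4.83% and 4.21% with IFNg, and 6.14% and 3.14% with IL4. With centring those for control, LPS and IFNg were 8 and 2, 13 and 2, and 8 and 1, and with library-total scaling those for LPS and IFNg were 9 and 6, and 5 and 5.

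Of the other replication and mitosis genes limma called few between genotypes outside LPS. The counts for the 45 other replication genes were 2 higher and 1 lower in control, 9 and 2 with LPS, 2 and 0 with IFNg and 1 and 0 with IL4. The shares over all genes were 4.11% and 3.05% in control, 9.7% and 12.5% with LPS, 4.83% and 4.21% with IFNg, and 6.14% and 3.14% with IL4. With IFNg edgeR called 8 higher and DESeq2 called 6, and with LPS only 2 were higher and 0 lower when only the libraries compared entered the fit. With LPS they were 12 and 0 with centring and 4 and 11 with library-total scaling, and in control 2 and 0 with centring and 1 and 1 with library-total scaling. Beside the 0 lower, 1 was lower at an unadjusted p below 0.05 with IFNg and 0 with IL4, edgeR called 2 in each, and DESeq2 called 1 in each. Wee1, which encodes a kinase that holds CDK1 inactive, lay at 402, 380 and 386 in KO LPS against 130, 98.1 and 123 in WT LPS (1.73 ± 0.12, adjusted p = 8.4e-11), and its interaction with LPS was 1.76. Cdt1, a partner of CDC6 in origin loading, was 0.74 higher in KO with LPS, at 780, 920 and 1044 against 563, 544 and 528. For the 50 other mitosis genes the counts were 0 and 0 in control, 5 and 4 with LPS, 3 and 1 with IFNg and 1 and 0 with IL4. In control 1 was higher and 7 were lower at an unadjusted p below 0.05, and edgeR and DESeq2 each called 0 higher and 6 lower. With IL4 2 were lower at an unadjusted p below 0.05, and edgeR called 4 and DESeq2 called 1. With LPS edgeR and DESeq2 each called 3 higher and 2 lower, and limma called 0 and 0 when only the libraries compared entered the fit. The LPS split was 1 and 9 with library-total scaling, and with IFNg 3 and 0 with centring. Cdc25b was 1.04 ± 0.23 higher in KO with IFNg.

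**Figure D4:**
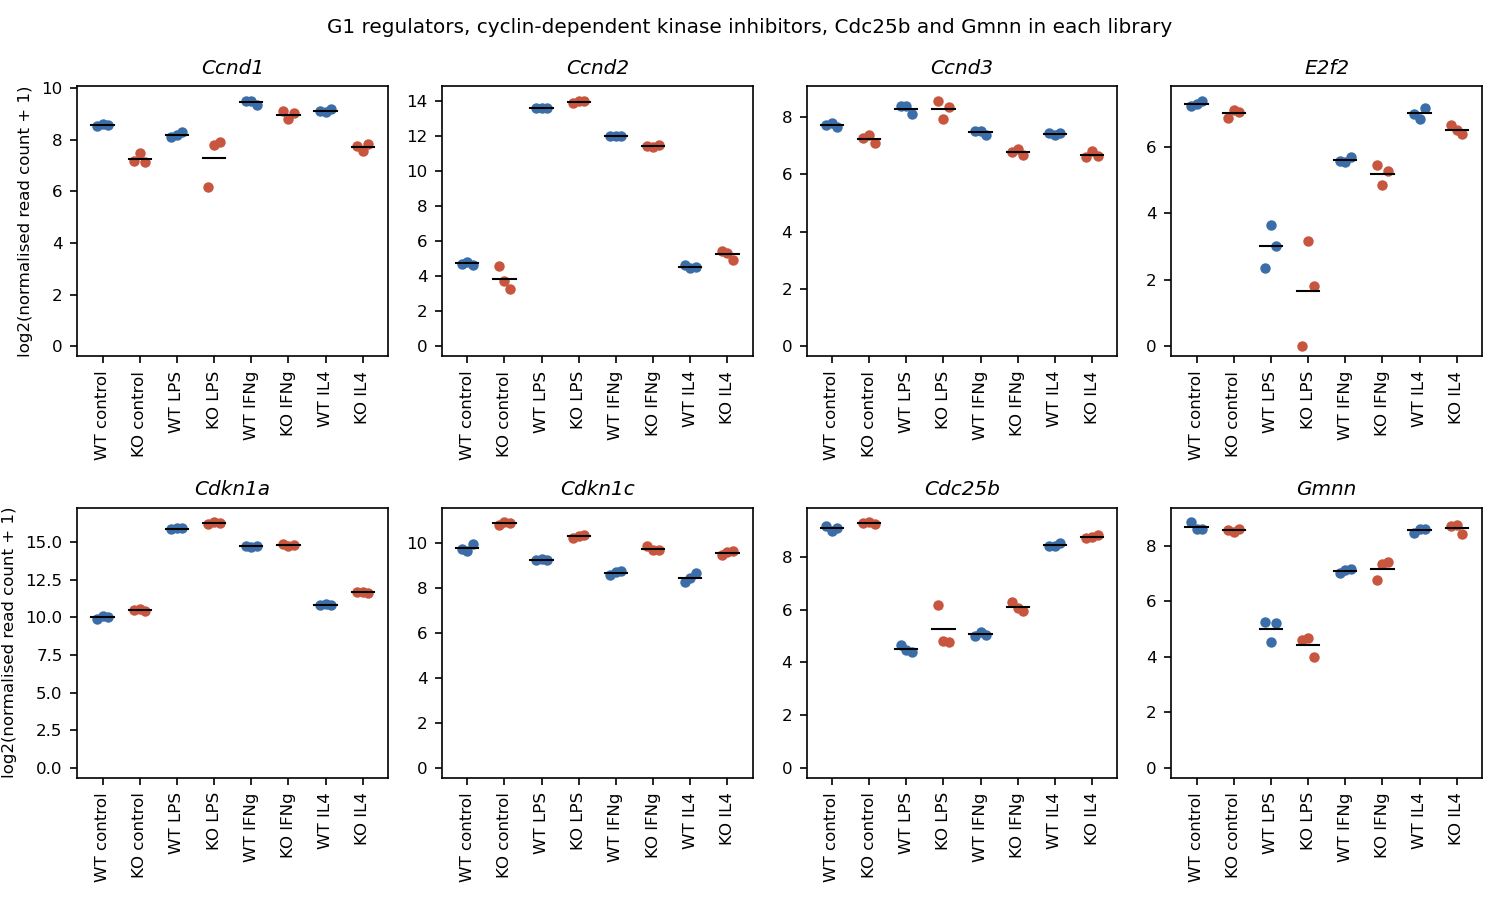
Normalised read counts of 8 regulators of the cell cycle outside the 35 genes in each of the 24 libraries, as log2 of the value plus 1, with blue points for WT, red points for KO and a short line at the mean of each group of 3. Ccnd2 and Cdkn1a were far above control in LPS and IFNg, Cdc25b, E2f2 and Gmnn were below it, and Cdkn1c was higher in KO than in WT in all 4 treatments.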

How the data were processed

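RNA sequencing libraries came from BMDMs in 8 groups of 3, grouped by the labels' genotype and treatment. The deposited values were a signal: gene-level read counts that the authors had divided by 1 factor per library, as read from the values, each a whole multiple of its library's smallest step within 0.05 reads. Per the submitters' processing notes, the tools were TopHat2 2.2.1, Cufflinks 2.2.1 and Cuffdiff, with build mm10 (GRCm38). The counting tool and its use of strand are not given in the sources used here.

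The scale was log2 of the value after adding 1. A gene entered when 3 or more libraries had a value of 1 or more, which left 18637 of 43629. All 24 libraries entered 1 linear model with a mean for each group, in limma 3.58.1 in R 4.3.3 (mean-variance trend, 16 residual degrees of freedom), with Benjamini-Hochberg adjustment over all genes kept. The fit was tested on simulated data. A library's depth sets the value of 1 read: 3 reads were worth 1.07 to 12.2, and 70.9 in KO LPS replicate 1. Such floors cover counting error only.

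Alternatives were edgeR 4.0.16 and DESeq2 1.42.0 on recovered reads, median centring, library weights, a pseudocount of 10, no filter, a filter at a value of 10, only the libraries compared, a replicate block and each library left out. Those chosen after seeing the data were scaling to library totals, leaving out the 3 shallowest libraries, and the comparisons of LPS with IFNg. The 35 genes and the other lists were chosen with earlier results of these data known. From each of the 3 other lists the text could name up to 4 called genes with the largest differences in each direction, and not all are named. Gene positions came from GENCODE M21 and promoters from RefSeq.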

Additional observations from a re-analysis of the deposited data

Results flagged for a closer look

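For 7 pairs of gene and treatment the response differed between the genotypes by a test of the difference itself, the interaction term in limma. With LPS the KO response was larger by 1.39 (log2) for Mki67, 1.28 for Ccne1, 1.18 for Kif11, 0.64 for Tpx2 and 0.47 for Pcna. In each of these except Kif11 all 3 KO LPS libraries stood above all 3 WT LPS libraries and the call held without each single library. The Kif11 libraries stood apart as well, at 94.5, 73.2 and 77.6 against 53.0, 36.1 and 41.7, but its call did not hold without WT control replicate 1 or 2, any of the 3 KO control libraries, or WT LPS replicate 2, where the value lay between 1.06 and 1.21. With IFNg the KO response of Tpx2 was larger by 0.58, and by 0.51, no longer called, without WT IFNg replicate 1. With IL4 the KO response of Mki67 was larger by 0.60. The Mki67 levels of the genotypes differed in control (92.5 to 110 in KO, 151 to 161 in WT) and overlapped with IL4 (176 to 220 in KO, 194 to 231 in WT).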

How the results depend on the processing

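Depth limited the low genes: in KO LPS replicate 1, 12 of 20 mitosis and 6 of 15 replication genes had under 3 reads. Of the member results called, 128 stayed called without each single library, and the others lost the call without at least 1. Mki67, Tpx2, Ccne1, Cenpa and Mcm2 stayed called, in the same direction, under all 17 alternatives for LPS and for IFNg against control in both genotypes. The cause of the changes listed here was not tested.

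Directions turned for these genes. Scaled to library totals, in WT LPS, Mcm6 was -0.50, Pcna -0.09 and Cenpe -0.14, and in KO LPS Mcm6 was -0.74, Kif11 -0.56, Cenpe -0.23 and Foxm1 0.00. In LPS against IFNg, also with library-total scaling, Mcm4 was -0.19 (WT) and -0.12 (KO), and Top2a -0.05 (KO). With centring Mcm3 was 0.27 (WT) and 0.24 (KO) in IFNg, and in KO LPS Mcm4 was 0.14 and Mcm5 0.11. Ccne2 in KO LPS against control was 1.75 with edgeR, 1.69 with DESeq2, 1.87 with library weights and 1.72 without the 3 shallowest libraries, and -0.98 to 1.72 with 1 library left out. Against KO IFNg it was 1.51, 1.45, 1.44 and 1.46, and -1.24 to 1.46. Against WT LPS it was 0.97 with edgeR, and -1.59 to 1.11.

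Medians of the replication genes with centring and with library-total scaling were -0.45 and -1.53 for LPS in WT, 0.11 and -1.17 for LPS in KO, -0.43 and -1.19 for IFNg in WT, and -0.27 and -1.04 for IFNg in KO. Those of the mitosis genes were -0.25 and -1.39, 0.02 and -1.24, -0.58 and -1.34, and -0.58 and -1.35. In LPS against IFNg the library-total medians were -0.36 (WT) and -0.32 (KO) for replication, where edgeR gave 0.25 in KO, and -0.04 and -0.11 for mitosis.

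Counts of genes called moved by over 1.5 times as follows. Higher mitosis genes: in KO IFNg 2 with library-total scaling, in KO LPS 8 with centring, 3 with library-total scaling and 3 with only the libraries compared, and in KO IL4 2 under edgeR, DESeq2, weights, only the libraries compared and without the shallow libraries. For KO against WT they were 2 with weights in IFNg, 2 with only the libraries compared in LPS, 1 in IL4 (stricter filter, edgeR, weights, without the shallow libraries) and 1 in control (edgeR, DESeq2, weights, only the libraries compared). The IL4 interaction counted 2 with weights and 0 with only the libraries compared. Lower mitosis genes: with library-total scaling 14 in WT LPS and 12 in KO LPS, where centring gave 4 and only the libraries compared 3. In KO IL4 they were 3 with edgeR and weights and 2 with DESeq2, only the libraries compared and without the shallow libraries. For KO against WT in LPS they were 0 (no filter, edgeR, DESeq2, only the libraries compared) or 1 (centring, weights, without the shallow libraries). In control they were 4 with edgeR, DESeq2 and weights and 2 with only the libraries compared, with library-total scaling and without the shallow libraries. In IFNg they were 2 under all 6 of those settings, and in IL4 2 with edgeR and 1 with weights and only the libraries compared. In LPS against IFNg they were 2 with library-total scaling and 1 with edgeR, DESeq2, weights and without the shallow libraries in KO, and in WT 1 to 3 under 8 settings. The LPS interaction counted 1 lower with edgeR, DESeq2 and weights.

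Higher replication genes: 1 with library-total scaling in WT LPS, 3 in LPS against IFNg in KO, 5 in WT IL4 (edgeR, DESeq2, weights, only the libraries compared, without the shallow libraries), 1 with centring in KO IL4 and 1 under 6 settings for KO against WT in IL4. With weights the LPS interaction counted 4 and the IL4 interaction 1. Lower replication genes: 6 with centring in KO IFNg, 1 under 7 settings in KO IL4, and in WT IL4 2 with weights and 1 with edgeR, DESeq2 and without the shallow libraries. For KO against WT they were 0 (centring, replicate block) or 2 (weights, without the shallow libraries) in IFNg, 0 (centring), 3 (edgeR, DESeq2, weights, only the libraries compared) or 4 (without the shallow libraries) in IL4, 5 with library-total scaling and 1 or 2 otherwise in LPS, and 3 (edgeR), 2 (weights, with library-total scaling) or 1 (without the shallow libraries) in control. Scaled to library totals they were 7 (WT) and 5 (KO) in LPS against IFNg. The IL4 interaction counted 1 lower under 5 settings.

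With 1 library left out, counts of mitosis genes ranged from 1 to 2 higher in KO IL4, 0 to 1 higher for KO against WT in IL4, 0 to 1, 1 to 2 and 2 to 6 larger in the IFNg, IL4 and LPS interactions, 0 to 1 smaller in the LPS interaction, 0 to 3 lower for KO against WT in LPS, and 0 to 2 lower for LPS against IFNg in KO. Counts of replication genes ranged from 1 to 3 higher in KO IL4, 0 to 1 higher and 0 to 1 lower for KO against WT in IL4, 2 to 4 larger in the LPS interaction, 0 to 2 lower for KO against WT in LPS, and 2 to 4 lower for LPS against IFNg in both genotypes. In WT IL4 the count of lower mitosis genes was 1 without each single library (2 with all), and for KO against WT in IFNg that of lower replication genes was 0 (1 with all). Searching only the 250 bases before the start, 46.7% of mitosis promoters held a CHR element.

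Same-numbered libraries did not deviate together (30 pairs, correlations of -0.05 to 0.08). Deviations over all genes kept include counting error, so these correlations cannot tell whether the numbers pair the libraries. A replicate block left 58 of 60 counts within 1.5 times; it called 0 replication genes lower for KO against WT in IFNg and 1 higher in IL4. In that fit Mcm3 lost its call in IFNg, and Nusap1 in KO IFNg.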
